A study of Mus musculus with 24 samples.

Results

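The transcripts described here are 10 mouse genes of the inflammatory cytokine response, namely Il6, Il1a, Il1b, Il1rn, Tnf, Il10, Il12b, Il18, Cxcl1 and Cxcl2. They were chosen by gene symbol and matched to the Ensembl identifiers of the count table, of which they are 10 of 56884. The filter on low counts kept 13679 genes, all 10 among them. Il12b passed it through naive macrophages alone, the one group with over 10 reads in every library, and Il1a had no group of that kind.

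The libraries were made from poly(A) RNA of bone marrow-derived macrophages, which are grown from marrow cells with the growth factor M-CSF. The marrow came from 4 wild-type C57BL/6J female mice of 9 weeks, numbered 1, 2, 4 and 5, and each mouse gave 1 library to each of 6 groups, 24 in all. M0 macrophages were left naive, and M2 macrophages were stimulated for 24 hours with IL-4 and IL-13, each at 20 ng/ml, the cytokines of alternative activation. The other 4 groups had 1 hour with an inhibitor, then 24 hours with the same cytokines and that inhibitor together. In the Tunica group this was tunicamycin at 5 µg/ml, which blocks N-glycosylation and so stresses the endoplasmic reticulum, and in the Sal003 group it was Sal003 at 10 µM, which keeps eIF2α phosphorylated. In the Oligo and Oli_ISR groups the cells were given 1 µM oligomycin, an inhibitor of ATP synthase in mitochondria. One of the oligomycin groups also received ISRIB at 1 µM, a compound that counteracts the effect of phosphorylated eIF2α on translation, and the labels disagree on which. Sample titles place ISRIB in the Oligo libraries, whereas library names place it in the Oli_ISR libraries. The groups are called by their library names below, and no group was assigned from measured values. Those bearing on the conflict were Atf4 and Ddit3, genes of the integrated stress response, at 704 and 226 CPM in Oligo and 478 and 123 CPM in Oli_ISR, and Arg1, a marker of IL-4 activation, at 148 and 295 CPM. The question behind the design was how the integrated stress response, raised in different ways, alters the activation of macrophages.

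Inflammatory macrophages release IL-6, TNF and IL-1 to alert other cells, and CXCL1 and CXCL2 to recruit neutrophils. These genes are switched on chiefly by NF-kappaB, AP-1 and C/EBP factors after a microbial signal such as lipopolysaccharide. IL-1β and IL-18 are made as inactive precursors that the inflammasome cleaves, and the IL-1 receptor antagonist, the product of Il1rn, occupies the IL-1 receptor without signalling. IL-10 limits the response, and the p40 chain encoded by Il12b is shared by IL-12 and IL-23. IL-4 and IL-13 are known to restrain many of these genes.

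The upstream sequences of 4 genes are shown because these genes moved in the most different ways. Il6 and Cxcl2 reached the highest levels of the 10, Cxcl1 lies beside Cxcl2, and Il1b was far below its naive level in every stimulated group. Each line holds the 250 bases before the start of the main annotated transcript, 5′ to 3′ on the strand of the gene, from the GRCm39 genome, and capitals mark matches to a motif.

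Il6: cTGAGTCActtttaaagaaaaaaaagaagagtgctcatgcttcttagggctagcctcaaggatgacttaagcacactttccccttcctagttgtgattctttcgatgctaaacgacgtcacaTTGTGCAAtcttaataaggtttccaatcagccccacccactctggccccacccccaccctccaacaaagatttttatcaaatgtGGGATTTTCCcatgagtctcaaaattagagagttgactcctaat
Cxcl2: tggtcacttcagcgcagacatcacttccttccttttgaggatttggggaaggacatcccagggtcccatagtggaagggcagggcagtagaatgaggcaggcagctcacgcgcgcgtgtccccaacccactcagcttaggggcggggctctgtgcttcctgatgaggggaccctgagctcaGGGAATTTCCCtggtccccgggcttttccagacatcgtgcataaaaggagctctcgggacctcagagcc
Cxcl1: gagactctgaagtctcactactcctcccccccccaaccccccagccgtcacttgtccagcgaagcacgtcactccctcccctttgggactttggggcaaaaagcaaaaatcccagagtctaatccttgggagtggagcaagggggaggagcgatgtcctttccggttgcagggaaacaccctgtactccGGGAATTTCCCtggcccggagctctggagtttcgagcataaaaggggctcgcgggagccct
Il1b: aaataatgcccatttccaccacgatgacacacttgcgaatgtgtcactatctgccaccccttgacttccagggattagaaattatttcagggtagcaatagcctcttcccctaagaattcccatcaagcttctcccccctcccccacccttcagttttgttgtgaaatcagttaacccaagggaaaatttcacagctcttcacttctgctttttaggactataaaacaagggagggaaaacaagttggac

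The windows lie at chr5:30217862-30218111 (plus strand) for Il6, chr5:91051480-91051729 (plus) for Cxcl2, chr5:91038844-91039093 (plus) for Cxcl1 and chr2:129213060-129213309 (minus) for Il1b. On both strands 5 motifs were searched, namely the C/EBP motif TTGCNNAA, the C/EBP-ATF motif TGATGNAA, the cAMP response element TGACGTCA, the AP-1 motif TGANTCA and the kappaB consensus. They occurred in 9.34%, 3.39%, 1.7%, 6.18% and 4.23% of 21757 promoters of this length. The Il6 window held an AP-1 match from -249 to -243, a C/EBP match from -128 to -121 and a kappaB match from -44 to -35, counted from the transcript start. Cxcl1 and Cxcl2 held the same kappaB letters, which began at -61 and -69 and gave overlapping matches on both strands. None of the 5 motifs was found in the windows of Il1b, Il1a, Tnf, Il10 or Il18, while Il1rn held an AP-1 match and Il12b a C/EBP-ATF match. A match describes letters in the window and was not tested as a binding site.

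Il6 lies at chr5:30218112-30224979 on GRCm39, and its exons overlap no exon of another annotated gene. Cxcl1 (chr5:91039094-91040974) and Cxcl2 (chr5:91051730-91053797) are neighbours on that chromosome. Of the Cxcl2 transcript, 21.5% is near-identical to Cxcl3, so reads could have been exchanged between that pair. Il1b (chr2:129206490-129213059, minus strand) and Il1a (chr2:129140291-129152098, minus) lie near each other and overlap transcripts of the opposite strand over 3.7% and 13.7% of their exons. Their counts are uncertain to that extent, because whether counting used strand is not given in the sources used here. Il1rn (chr2:24226865-24241506), Il10 (chr1:130947581-130952711), Il12b (chr11:44290808-44305505), Il18 (chr9:50466081-50493633) and Tnf (chr17:35418357-35420983, minus) have no exon that overlaps an exon of another annotated gene. Of the Il1a, Il1rn and Il12b transcripts, 14.3%, 4.0% and 3.5% were near-identical to transcripts of other genes.

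Each library had between 16238727 and 26725278 reads on genes, and 3 reads, taken as the floor, were worth 0.116 to 0.182 CPM, the unit in which reads are scaled to the size of the library. All 7 macrophage markers were over the floor in every library, with summed levels of 30600 to 36300 CPM in M0 and 8720 to 17600 CPM in the stimulated groups. The sum joins markers that moved in opposite directions. In Tunica, Adgre1 (6050 to 7300 CPM, M2 869 to 1110), Fcgr1 and Lyz2 were above every M2 library. Csf1r (751 to 855 CPM, M2 3460 to 4250), Cd68 and Mertk were below every M2 library, and Itgam overlapped. The 9 neutrophil markers summed to 41.3 to 78.2 CPM in M0, 24.3 to 45 in M2, 5.19 to 8.55 in Sal003, 2.75 to 4.82 in Oligo, 19 to 24.9 in Oli_ISR and 0.103 to 0.286 in Tunica, where 8 of 9 were at the floor in every library. The 4 stromal markers ran from 18.5 to 132 CPM in M0, from 16 to 83.9 in M2, from 3.67 to 25 in Tunica and from 6 to 53.6 in the other inhibitor groups. The 5 dendritic cell markers summed to 6.76 to 11.1 CPM in M0, 9.11 to 9.83 in M2, 1.59 to 2.29 in Tunica, 2.75 to 3.96 in Sal003, 1.88 to 3 in Oligo and 2.22 to 4.57 in Oli_ISR. In bulk RNA, fewer cells of a type and less RNA per cell cannot be told apart.

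**Figure D1:**
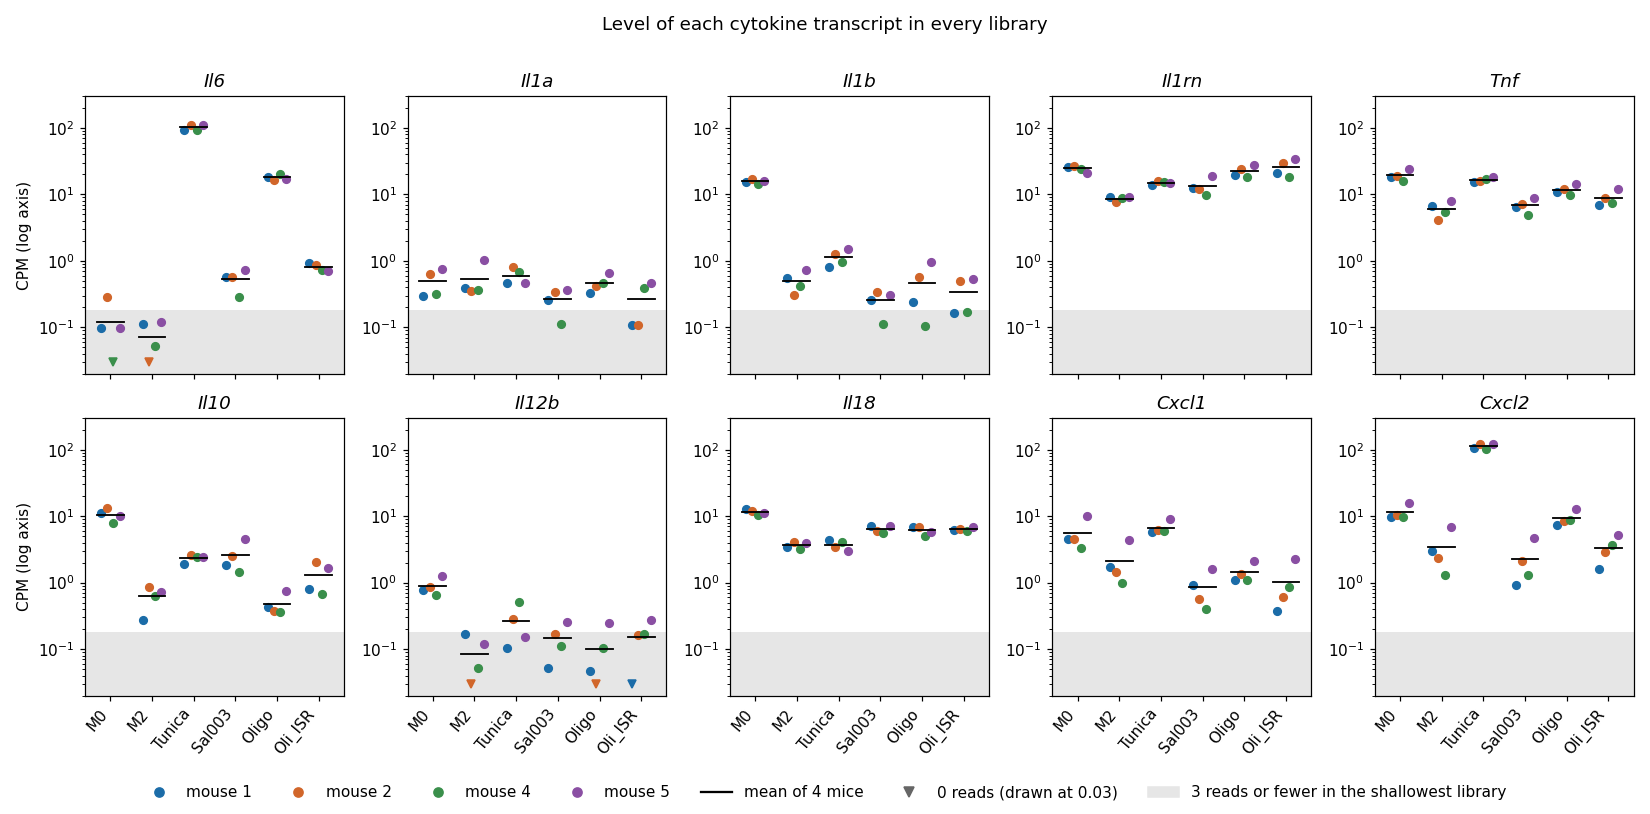
Level in CPM, on a log axis, of each of the 10 transcripts in each of the 24 libraries, by group and coloured by mouse. Black bars are group means, triangles are libraries with 0 reads, and the grey band covers 3 reads or fewer in the shallowest library. Il6 and Cxcl2 reached group means of 103 and 114 CPM in Tunica, and Il1b was at 14.3 CPM or more in M0 and at 1.53 CPM or less elsewhere.

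M2 macrophages were compared with naive ones to see what IL-4 and IL-13 did to these genes. Of the 10, 8 fell by at least 2.5-fold at an adjusted p under 0.05 and none rose, where the same rule called 6.08% of all genes tested lower. Il12b, which passed the filter through M0 alone, could be called only as a fall, and without it the count was 7 of 9. All p-values below are from 1 edgeR quasi-likelihood model over the 24 libraries, adjusted by Benjamini-Hochberg over all genes tested. The median change of the 10 genes was -1.67 on the log2 scale, against -0.02 for all genes. Il6 and Il1a, both low in M0 already, were the genes that did not pass.

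Il1b, which encodes the pyrogen IL-1β, had the largest fitted fall of the 10. Its M0 libraries held 15.6, 16.9, 14.3 and 16.1 CPM in mice 1, 2, 4 and 5, and its M2 libraries held 0.557, 0.303, 0.421 and 0.728 CPM. The groups did not overlap, and the M2 libraries stood at 1.79% to 4.51% of the M0 library of the same mouse. The fitted change was -4.98 ± 0.29 (SE, n = 4 per group) on the log2 scale, 31.5-fold lower, with an adjusted p of 1.3e-13. Neutrophil markers, as summed above, were also lower in M2 with overlapping ranges, and their part in this result was not tested.

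Il10, whose product restrains inflammation, fell alongside Il1b. Its level was 11, 13.2, 7.99 and 10.2 CPM in the M0 libraries and 0.278, 0.857, 0.632 and 0.728 CPM in the M2 libraries. The groups did not overlap, and the fitted level was 16.7-fold lower in M2 (adjusted p = 8.5e-11). Il12b, the p40 chain, had 16, 15, 12 and 25 reads in M0 and 3, 0, 1 and 2 reads in M2. M2 was thus at the floor. With M2 set at 3 reads per library, Il12b was 5.35-fold lower there, -2.42 on the log2 scale. The fitted 95% interval of -4.63 to -2.02 also allows a smaller fall.

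The other 5 genes kept more of their naive level. Per mouse, M2 libraries held on average 35.5% ± 5.81 (SD, n = 4) of the M0 level for Il1rn, 31.6% ± 6.52 for Tnf, 31.8% ± 4.07 for Il18, 35.7% ± 6.03 for Cxcl1 and 27.4% ± 12.9 for Cxcl2. The 5 fell by between 2.7-fold (Cxcl1, adjusted p = 0.0048) and 3.49-fold (Cxcl2, adjusted p = 9.1e-05), and of these Cxcl1 alone had overlapping groups. Il1rn fell less than Il1b, whose receptor its product blocks. Per transcript length, the ratio of Il1rn to Il1b had a median of 0.772 over the M0 libraries and 8.75 over the M2 libraries.

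Il6, the main pyrogenic cytokine beside IL-1 and TNF, was at the limit of detection before any inhibitor. It had 2, 5, 0 and 2 reads in the M0 libraries and 2, 0, 1 and 2 reads in the M2 libraries. No difference between M0 and M2 could be measured at this depth. Il1a, which encodes the intracellular alarmin IL-1α, had 6 to 15 reads per library in M0 and 7 to 17 in M2, and its fitted change was 0.08 with a 95% interval of -0.81 to 0.97.

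The Tunica, Sal003, Oligo and Oli_ISR comparisons with M2 share the same 4 M2 libraries, so they are not independent of each other, and values are set side by side. Of the inhibitor groups, Tunica had the most of the 10 genes called. Called higher were Il6, Cxcl2, Il10, Cxcl1 and Tnf, 5 of the 10, where 8.56% of all genes tested were called higher, and 7 of 10 passed at any size against 38.7% of all genes. None passed in the other direction. Il6 and Il12b were at the floor in M2, so in all 4 comparisons they could be called only as rises. Il6 had over 10 reads in every library of Tunica, Oligo and Oli_ISR alone, and the counts of genes called over M2 include it. The median change of the 10 was 1.52 (1.34 with bounds in place of fitted values), against 0.01 over all genes.

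Il6 went from the floor to one of the highest levels of the 10. Tunica libraries of mice 1, 2, 4 and 5 had 1842, 2349, 1670 and 2158 Il6 reads, which is 94.6, 112, 94.7 and 110 CPM. With M2 at 0 to 2 reads, the level in Tunica was at least 624-fold higher (adjusted p = 1.9e-23). The mice differed little, with a coefficient of variation of 9.15%.

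Cxcl2, a chemokine that draws neutrophils through CXCR2, rose to the same range from a higher start. Tunica libraries held 105, 120, 104 and 124 CPM, against 2.95, 2.32, 1.32 and 6.98 CPM in M2. The groups did not overlap, and the rise was 34.4-fold (5.11 ± 0.31 on the log2 scale, adjusted p = 1.1e-13). Unlike the other members with a measurable naive level, Cxcl2 also exceeded M0 in every mouse, at 779% to 1140% of the naive library, and was 9.86-fold above it (adjusted p = 2.2e-11). Per transcript length, Cxcl2 stood at 284 ± 26 TPM (transcripts scaled to exon length and library size, SD, n = 4) and Il6 at 219 ± 20.1 in Tunica, ahead of Tnf at 52.7 ± 3.96.

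Tnf and Cxcl1 rose in Tunica to levels that did not pass as different from naive over the 4 mice. Tnf held 15.3, 16.1, 17.3 and 18.2 CPM there against 6.74, 4.14, 5.48 and 8.07 CPM in M2, a 2.76-fold rise (adjusted p = 1.7e-07). Its difference from M0 was -0.21 on the log2 scale (95% interval -0.56 to 0.14, adjusted p = 0.27). Cxcl1 held 5.7, 6.19, 5.96 and 9.12 CPM, 3.21-fold above M2 (adjusted p = 0.00077), and its difference from M0 was 0.25 (-0.51 to 1.01). Without mouse 5 that difference was 0.55 and passed (adjusted p = 0.013).

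Il10 rose with tunicamycin but stayed well under the naive level. The Tunica libraries held 1.9, 2.62, 2.44 and 2.45 CPM, all above the M2 libraries, 3.72-fold higher (adjusted p = 7.9e-05) and 4.49-fold under M0 (adjusted p = 7.7e-08). Il1rn rose 1.73-fold (adjusted p = 0.00067) to 61% ± 7.27 (SD, n = 4) of naive.

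Il1b did not follow Il6 and Cxcl2. It was 0.822, 1.29, 0.964 and 1.53 CPM in Tunica, 2.33-fold above M2 (adjusted p = 0.0057), and remained 13.5-fold under M0 (adjusted p = 7.4e-13). Without mouse 2 the rise over M2 was 0.97 on the log2 scale and no longer passed (adjusted p = 0.075). Il18, the other cytokine matured by the inflammasome, was 4.42, 3.38, 4.08 and 3.01 CPM against 3.45, 4.08, 3.16 and 4.01 CPM in M2. These groups overlapped, and the fitted change was 0.02 with a 95% interval of -0.27 to 0.3. Il1a and Il12b did not pass (adjusted p = 0.66 and 0.065), and Il12b passed without mouse 1 (adjusted p = 0.018) or without mouse 5 (adjusted p = 0.037), on at most 9 reads per library.

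Summed neutrophil and dendritic cell markers were lower in every Tunica library than in any M2 library, at no more than 0.286 and 2.29 CPM, where Il6 and Cxcl2 were highest. Dendritic cell markers were also lower than in M2 in every library of the other inhibitor groups. Their part in the rises was not tested.

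In Sal003, Il10 and Il6 were called higher than in M2, 2 of 10, where 2.68% of all genes tested were, and Il18 and Il1rn passed with smaller changes. Il10 held 1.82, 2.54, 1.47 and 4.48 CPM, above every M2 library and 4.1-fold higher (adjusted p = 6.7e-05). Its level did not differ measurably from that in Tunica (-0.14 for Tunica minus Sal003, 95% interval -0.76 to 0.48), and without mouse 5 the sign of this difference was the opposite.

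Il6 had 11, 10, 5 and 14 reads in the Sal003 libraries, more than in any M2 library, and was called higher (adjusted p = 0.00012). The fitted 95% interval was 1.68 to 4.06 on the log2 scale. With M2 set at 3 reads per library, the Sal003 level was 3.25-fold higher. This was far under Tunica, by 188-fold (adjusted p = 4.7e-23). Il18 rose in 4 of 4 mice, to 7.01, 6.09, 5.66 and 7.05 CPM, 1.76-fold above M2 (adjusted p = 1.1e-05). Il1rn rose 1.54-fold (adjusted p = 0.0096).

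Tnf, Cxcl2, Il1a, Il1b and Il12b did not pass in Sal003. Their intervals still allow changes, from -2.01 to 0.16 for Il1b, from -1.95 to 0.06 for Il1a and from -0.24 to 0.61 for Tnf. Cxcl1 was lower than M2 in 4 of 4 mice, at 0.934, 0.564, 0.396 and 1.6 CPM against 1.73, 1.46, 1 and 4.37 CPM, a fitted change of -1.23 (adjusted p = 0.059). With the mouse as a block, which removes the differences between animals, the change was -1.24 with an adjusted p of 0.00063. The Cxcl1 fall without mouse 5 was -1.12 (adjusted p = 0.0065).

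The Oligo libraries held the second highest Il6. They had 386, 350, 389 and 336 reads, or 18.3, 16.5, 20.4 and 16.8 CPM, at least 109-fold above M2 (adjusted p = 8.5e-19). Il6 was still 5.72-fold lower there than in Tunica (adjusted p = 1.4e-17). Called higher over M2 were Il6, Il1rn and Cxcl2, 3 of 10, where 4.79% of all genes tested were.

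Cxcl2 rose 2.83-fold in Oligo (adjusted p = 0.00071), from the M2 values above to 7.43, 8.51, 8.69 and 12.8 CPM. That was 76.2% to 89.6% of naive, mouse by mouse, and its difference from M0 was -0.3 (95% interval -0.91 to 0.31). The neighbouring Cxcl1 did not follow, at 1.09, 1.36, 1.1 and 2.15 CPM against the M2 values above (-0.55, 95% interval -1.57 to 0.46).

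Il1rn held 19.9, 24, 18.6 and 27.5 CPM in Oligo, against 9.19, 7.77, 8.74 and 9.04 CPM in M2. The groups did not overlap, and the rise was 2.59-fold (adjusted p = 4.4e-07). The level was close to the naive libraries, at 26.2, 27.2, 24.4 and 21.2 CPM (Oligo minus M0 -0.14, 95% interval -0.48 to 0.21). Without mouse 2 or mouse 5 the rise was 1.29 or 1.28 on the log2 scale, just under 2.5-fold, and without mouse 4 that of Cxcl2 was 1.26, while each kept its adjusted p under 0.05.

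Tnf and Il18 rose less, 1.95-fold (adjusted p = 0.00012) and 1.66-fold (adjusted p = 2.4e-05). Tnf held 10.8, 12, 9.9 and 14.4 CPM, which was 58.6% to 64% of the naive library of the same mouse. Il10, at 0.426, 0.376, 0.367 and 0.75 CPM, did not differ measurably from M2 (-0.38, 95% interval -1.42 to 0.65). It was 5.35-fold lower than in Sal003 (adjusted p = 9.9e-06) and 4.86-fold lower than in Tunica (adjusted p = 1.5e-05). Il1b did not differ measurably from M2 either, at 0.237, 0.564, 0.105 and 0.949 CPM (-0.08, -1.01 to 0.85).

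The Oli_ISR libraries had little Il6. They held 17, 16, 13 and 18 reads, or 0.921, 0.882, 0.735 and 0.697 CPM, at least 4.91-fold above M2 (adjusted p = 2.4e-06). This was not distinguishable from Sal003 (0.56, 95% interval -0.09 to 1.21). Il6 and Il1rn were called higher over M2, 2 of 10, where 2.94% of all genes tested were.

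Il1rn was as high in Oli_ISR as in naive cells. The libraries held 21.2, 30.1, 18.2 and 33.9 CPM, 3-fold above M2 (adjusted p = 7.1e-08), and differed from M0 by 0.07 (95% interval -0.27 to 0.42). Il18 rose 1.74-fold (adjusted p = 1.1e-05), to 6.12, 6.5, 5.94 and 6.93 CPM. Tnf rose 1.46-fold (adjusted p = 0.023) and Il10 2.1-fold (adjusted p = 0.031), both with groups that overlapped those of M2. Tnf no longer passed without mouse 2 (adjusted p = 0.18) or with only the groups compared (adjusted p = 0.054). Il10 no longer passed without mouse 1, 2 or 5 (adjusted p = 0.088, 0.11 and 0.086). Cxcl2 did not differ measurably from M2 (0.09, 95% interval -0.78 to 0.95). Cxcl1 was lower than M2 in 4 of 4 mice without passing (-0.92, adjusted p = 0.13), and passed with the mouse as a block (-0.98, adjusted p = 0.0027) or without mouse 5 (-1.2, adjusted p = 0.0038).

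**Figure D2:**
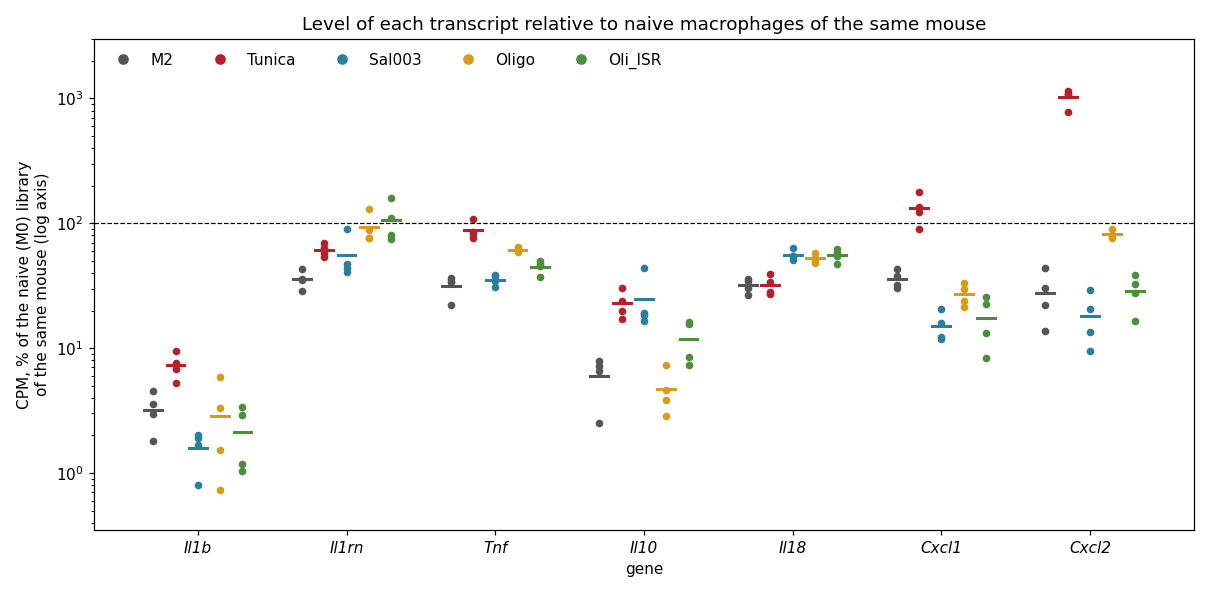
CPM in each stimulated library as a percentage of the naive (M0) library of the same mouse, on a log axis, for 7 genes. Dots are the 4 mice, short bars their mean and the dashed line the naive level. Il1b stayed at 9.46% of naive or less in all 5 stimulated groups, Il1rn in Oligo and Oli_ISR lay around the naive level, and Cxcl2 in Tunica lay at 779% or more.

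The direct comparison of the oligomycin groups separated 3 of the 10 genes. Il6 and Cxcl2 were called higher in the Oligo libraries, 2 of 10, where 1.14% of all genes tested were, and Il10 was called lower, where 1.48% were. Il6 was 22.3-fold higher (4.48 ± 0.16 SE on the log2 scale, adjusted p = 1.9e-16), with ratios within mice of 4.22 to 4.79 on that scale. Which of the groups held ISRIB cannot be told apart from the labels, so the direction is that of the library names.

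Cxcl2 was 2.67-fold higher in the Oligo libraries (adjusted p = 0.0019), where 1.62, 2.92, 3.73 and 5.23 CPM in Oli_ISR stood against the Oligo values above. Groups did not overlap, and all 4 mice had the same direction. Il10 was 0.812, 2.04, 0.679 and 1.66 CPM in Oli_ISR, and 2.74-fold lower in Oligo (adjusted p = 0.0075). The Il10 groups overlapped, and without mouse 2 the difference was -1.09 and did not pass (adjusted p = 0.098).

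Tnf was higher in the Oligo library of 4 of 4 mice by a smaller amount, 0.42 (adjusted p = 0.075), and passed with the mouse as a block (0.43, adjusted p = 0.0037) or without mouse 5 (0.52, adjusted p = 0.011). Il1rn and Il18 differed by -0.21 (95% interval -0.55 to 0.13) and -0.07 (-0.32 to 0.18). Cxcl1 differed by 0.36 (-0.73 to 1.46), and by 0.96 without mouse 5 (adjusted p = 0.025). Il1a and Il1b did not pass, and Il12b was too low to compare, with 0 to 7 reads.

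**Figure D3:**
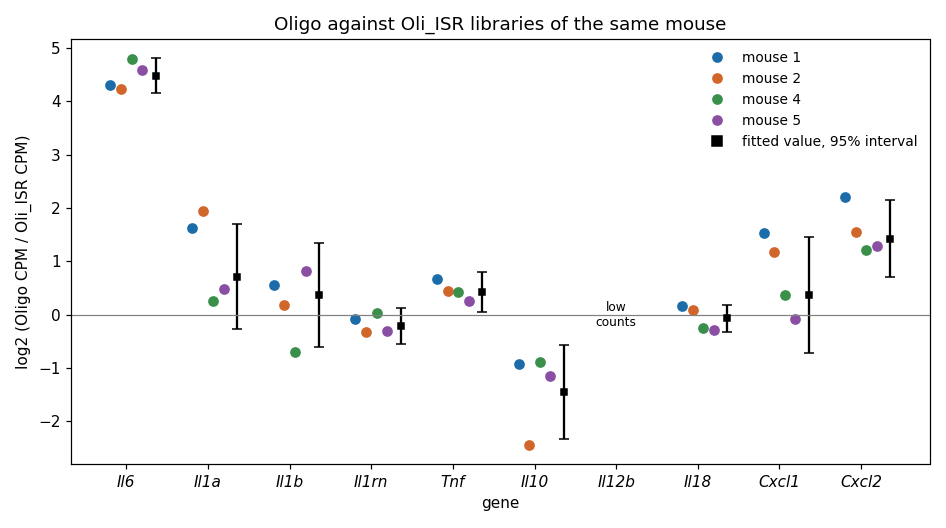
Log2 ratio of Oligo to Oli_ISR CPM within each mouse (coloured dots), with the fitted log2 fold change and its 95% interval (black squares and bars), for each gene. Il6 lay between 4.22 and 4.79 in all 4 mice and Il10 was below 0 in all 4.

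Ordered by level, each gene had its own sequence of groups. For Il6 the order was Tunica (103 CPM), Oligo (18), Oli_ISR (0.809), Sal003 (0.535), then M0 and M2, of which the pairs Oli_ISR with Sal003 and M0 with M2 did not differ measurably. For Cxcl2 it was Tunica (114), M0 (11.5), Oligo (9.36), M2 (3.39), Oli_ISR (3.38) and Sal003 (2.27), where M0 did not differ measurably from Oligo, nor the last groups from each other in turn. For Il1b it was M0 (15.7), Tunica (1.15) and then M2, Oligo, Oli_ISR and Sal003 from 0.502 down to 0.255 CPM, with no measurable step among the last 4.

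Il10 was ordered M0 (10.6), Sal003 (2.58), Tunica (2.35), Oli_ISR (1.3), M2 (0.624) and Oligo (0.48), and neither Sal003 with Tunica nor M2 with Oligo differed measurably. The step from Tunica to Oli_ISR did not pass without mouse 1 or mouse 4 (adjusted p = 0.066 and 0.12). Il18 fell into 3 levels, M0 at 11.6 CPM, then Sal003, Oli_ISR and Oligo at 6.45 to 6.09 CPM, then Tunica and M2 at 3.72 and 3.68 CPM. Il1rn was highest in Oli_ISR, M0 and Oligo (25.8 to 22.5 CPM), lower in Tunica and Sal003 (15 and 13.3) and lowest in M2 (8.69). Tunica passed as higher than Sal003 without mouse 5 (0.43, adjusted p = 0.016). For Tnf the highest groups were M0 and Tunica (19.3 and 16.7 CPM), and among Oligo, Oli_ISR, Sal003 and M2 (11.8 to 6.11) no step between neighbours passed. The step from Oligo to Oli_ISR passed with the mouse as a block, as given above, and that from Tunica to Oligo was lost without mouse 4 (0.41, adjusted p = 0.079).

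Some of the spread between libraries went with the mouse. Tnf, Cxcl1 and Cxcl2 were highest in mouse 5 in 6 of 6 groups, and Il1a in 5 of 6. In M2, for example, Cxcl1 was 4.37 CPM in mouse 5 and 1.73 CPM or less in the others. Mouse 5 also had the lowest summed stromal markers and the highest summed dendritic cell markers in 6 of 6 groups, for M2 16 CPM against 48.8 or more and 9.83 CPM against 9.48 or less. Their part in the cytokine levels was not tested.

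Genes around the cytokines were taken from 8 lists. Over all genes tested, 5.39% were called higher and 6.08% lower in M2 than in M0. Against M2, 8.56% were called higher and 14% lower in Tunica, 2.68% and 5.04% in Sal003, 4.79% and 7.96% in Oligo, and 2.94% and 5.02% in Oli_ISR. At any size, 60.5% of all genes passed in M2 against M0, 76.3% in Tunica, 50.6% in Sal003, 66.2% in Oligo and 54.3% in Oli_ISR against M2, and 41.2% between the oligomycin groups, so a count near these shares is no result about a list.

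Of 22 other genes of the lipopolysaccharide response, 16 were tested, and in M2 against M0 7 were called lower and none higher, with a median of -1.31. Cxcl10, a chemokine for T cells, was 52.5-fold lower (adjusted p = 6e-13). Cxcl9, a relative of it, was at the floor in M2 and at least 6.4-fold lower. It had 18 to 22 reads per library in M0 and at most 7 in any library of the other groups. It thus passed the filter through M0 alone, could be called only as a fall, and is among the 7.

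In Tunica against M2, 12 of these 16 were called higher and 1 lower, with a median of 2.63 against 0.01 for all genes. Ccl3, a chemokine for monocytes and lymphocytes, rose from 8.75 ± 0.797 to 294 ± 13.3 CPM (SD, n = 4), 33.5-fold (adjusted p = 1.4e-21). Nos2, the inducible nitric oxide synthase, was at the floor in M2 and higher in Tunica (adjusted p = 1.1e-11). With M2 set at 3 reads per library it was 26.6-fold higher, 4.73 on the log2 scale. The fitted 95% interval was 4.4 to 6.08. With 0 to 3 reads per library in M2, it could be called only as a rise. Cxcl16, the 1 gene called lower, was chosen for mention after its value was seen and fell by 1.56 on the log2 scale.

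In the other inhibitor groups fewer of the 16 were called, all higher than M2, with 3 in Sal003, 5 in Oligo and 4 in Oli_ISR. Acod1, which makes the metabolite itaconate, was called in each of these, 12.8-fold, 8.63-fold and 6.72-fold above M2 (adjusted p = 3.5e-10, 4.6e-09 and 1e-07). Slc25a33, a mitochondrial carrier, rose 7.06-fold in Oligo (adjusted p = 1.2e-15). Its mean was 1.84 CPM in M2, 13 in Oligo, 6.09 in Oli_ISR, 2.85 in Sal003 and 35.8 in Tunica. Cxcl10 rose 3.37-fold in Oli_ISR (adjusted p = 0.0033), with groups that overlapped. Its mean was 0.82 CPM in M2, 2.69 in Oli_ISR, 2.87 in Oligo, 1.85 in Sal003 and 18.6 in Tunica. Between the oligomycin groups Cxcl3 alone was called, 2.86-fold higher in Oligo (adjusted p = 0.0066).

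**Figure D4:**
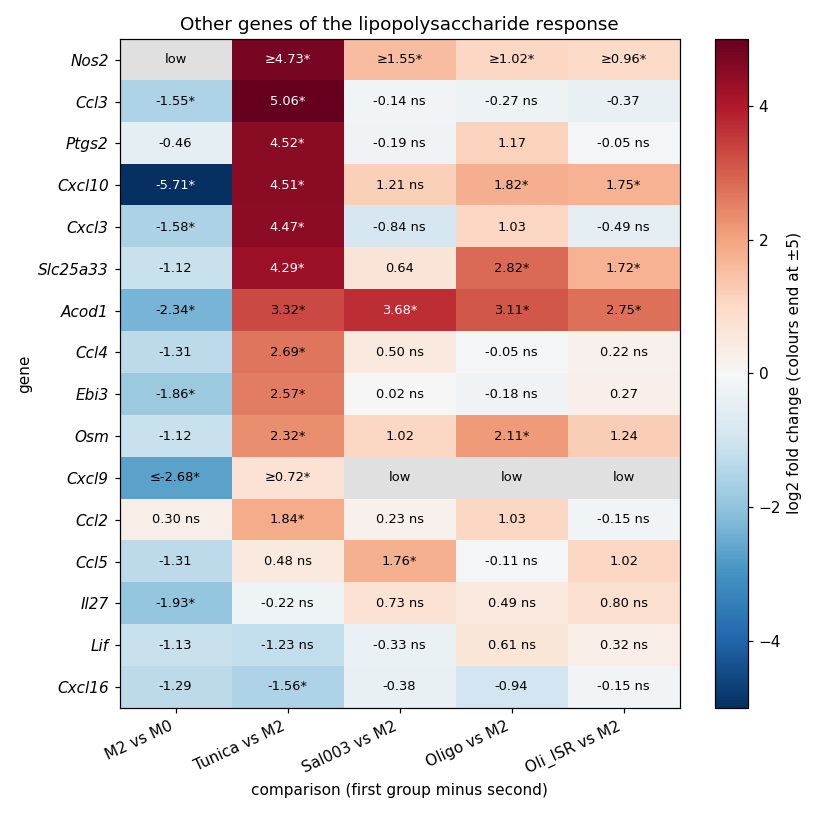
Log2 fold change of 16 other genes of the lipopolysaccharide response (rows) in 5 comparisons (columns). An asterisk marks an adjusted p under 0.05 with at least 2.5-fold, ns an adjusted p of 0.05 or more, ≥ and ≤ a bound where 1 group was at the floor, and grey cells counts too low to compare. In Tunica 12 of the 16 were called higher than M2, in Sal003 3.

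Of 15 NF-kappaB subunits and inhibitors, 1 was called lower in M2 than in M0, and 3 were called higher and 1 lower in Tunica than in M2. Nfkbiz, which encodes IκBζ, a nuclear cofactor for Il6 and other secondary response genes, fell 18.1-fold in M2 (adjusted p = 1.6e-21) and rose 46.6-fold in Tunica (adjusted p = 1.2e-24) and 3.23-fold in Oligo (adjusted p = 9.8e-14). Nfkbie, an inhibitor of NF-kappaB, fell in Tunica, Oligo and Sal003 by 5.14-fold, 3.18-fold and 2.64-fold (adjusted p = 2.1e-18, 2.1e-15 and 2e-13). In Oli_ISR it was not called, but every library was below every M2 library, with means of 20.6 and 49.1 CPM. The mean in Sal003 was 18.6 CPM. In Sal003, Oligo and Oli_ISR the list had 0, 1 and 0 genes called higher and 1, 1 and 0 lower, and 12, 10 and 11 of 15 passed at any size.

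Of 17 factors known to bind cytokine promoters, 4 were called higher and 7 lower in Tunica than in M2, where 8.56% and 14% of all genes were. M2 against M0 had 2 higher and 2 lower, Oligo 2 higher, Oli_ISR 2 higher and 1 lower, and Sal003 1 lower. Ddit3, the stress factor CHOP, rose 18.5-fold in Tunica, 6.98-fold in Oligo and 3.8-fold in Oli_ISR (adjusted p = 9.4e-21, 5.3e-17 and 1.8e-13). Atf4, the main factor of the integrated stress response, rose 8.06-fold in Tunica, 5.19-fold in Oligo and 3.52-fold in Oli_ISR (adjusted p = 3.2e-21, 1.1e-18 and 5.4e-16), and was 0.56 higher on the log2 scale in Oligo than in Oli_ISR (adjusted p = 7.2e-07). In Sal003 it rose by 0.61 (adjusted p = 1.8e-07). Fos, an AP-1 subunit, fell 12.6-fold in Tunica (adjusted p = 4.4e-18). Maf, a factor known to drive Il10, fell 9.14-fold in M2 (adjusted p = 4e-21), and Fosl2, another AP-1 subunit, rose 3.77-fold (adjusted p = 6.2e-18). Fosl1 fell 2.73-fold in Sal003 (adjusted p = 0.0059), on 2 to 4 reads per library against 5 to 16 in M2. Its mean of 0.175 CPM in Sal003 stood beside 0.186 in Oli_ISR, 0.258 in Oligo and 0.27 in Tunica.

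Several receptors of the IL-1 family were higher in M2 and lower with the inhibitors. Of 14 receptors and regulators 13 were tested, and in M2 against M0 5 were called higher and 1 lower. Il1rl1, the receptor for IL-33, rose 29.9-fold (adjusted p = 7.9e-17) and Il18r1, a chain of the IL-18 receptor, 8.38-fold (adjusted p = 2.6e-06). Il18r1 had 22 to 24 reads per library in M2 and at most 4 in any library of the other groups. It thus passed the filter through M2 alone. It could be called only as higher in M2 and lower with the inhibitors, and the counts here include it. With the inhibitors 4 were called lower in Tunica, 5 in Sal003, 4 in Oligo and 5 in Oli_ISR, with 1 higher in each. The shares of all genes called lower were 14%, 5.04%, 7.96% and 5.02%. Il1rl1 was at least 502-fold lower in Tunica, where it was at the floor, and fell 41-fold in Sal003, 116-fold in Oligo and 29.4-fold in Oli_ISR (adjusted p = 3.5e-19, 3.3e-16, 4.1e-18 and 2.9e-16). Between the oligomycin groups, Il1rl1 and Il18rap, the other IL-18 receptor chain, were 3.96-fold and 6.37-fold lower in Oligo (adjusted p = 3.3e-05 and 2.3e-08).

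Of 10 inflammasome genes, 2 were called lower in M2 than in M0, Nlrp3 (3.9-fold, adjusted p = 1.9e-17) and Nlrc4 (2.6-fold, adjusted p = 3.4e-11). Both are sensors, and other sensors in the list were not called. In Tunica 2 were called higher, Nlrp3 (2.72-fold, adjusted p = 2.5e-15) and Casp4 (6.08-fold, adjusted p = 1.6e-17), a caspase that senses lipopolysaccharide in the cytosol, and in Oligo Casp4 alone (4.18-fold, adjusted p = 5.8e-15). None was called in Sal003, Oli_ISR or between the oligomycin groups, where 6, 8 and 7 of 10 passed at any size, against 50.6%, 54.3% and 41.2% of all genes.

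Of 12 receptors and signalling genes for IL-6, IL-10 and IL-12, 2 were called higher and 2 lower in M2 than in M0, and 2 and 2 in Tunica and in Oligo. Sal003 and Oli_ISR each had 1 called higher. Socs1, a feedback inhibitor of cytokine receptors, rose 17.5-fold in M2 (adjusted p = 8.4e-19) and fell 15.2-fold in Tunica (adjusted p = 3.1e-19). Socs3, the feedback inhibitor of IL-6 signalling, rose 11.1-fold in Tunica (adjusted p = 5.6e-18) and was 2.91-fold higher in Oligo than in Oli_ISR (adjusted p = 2.2e-09). Il12rb1, a receptor chain for IL-12 and IL-23, rose 8.47-fold in Sal003, 4.49-fold in Oligo and 7.01-fold in Oli_ISR (adjusted p = 2.4e-07, 5.2e-05 and 1.1e-06). Its M2 level was low and uneven, at 1 to 14 reads per library. Log2 ratios within mice ran from 1.61 to 5.87 in Sal003, 0.77 to 4.53 in Oligo and 1.15 to 5.28 in Oli_ISR. Il10ra, the IL-10 receptor chain, fell 3.04-fold in Oligo (adjusted p = 2.6e-20). Stat4 fell 5.07-fold in M2 (adjusted p = 1.7e-07).

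Of 11 genes of cytokine mRNA decay, none was called in M2 against M0, where 6 passed at any size against 60.5% of all genes. In Tunica 3 were called lower and in Oligo 1, where 14% and 7.96% of all genes were. Zfp36l1 and Zfp36l2, relatives of tristetraprolin that direct AU-rich mRNAs to decay, fell 8.19-fold and 3.78-fold in Tunica (adjusted p = 5.4e-20 and 1.1e-19), and Zfp36l2 fell 2.57-fold in Oligo (adjusted p = 2.6e-16). Of 9 genes of TNF processing and receptors, Birc3 alone was called, 2.77-fold higher in Tunica (adjusted p = 2.1e-18). Arg1, a marker of IL-4 activation that checks the treatment, had mean levels of 0.0513 CPM in M0, 455 in M2, 0.111 in Tunica, 129 in Sal003, 148 in Oligo and 295 in Oli_ISR.

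Genes whose level followed each cytokine most closely were ranked by Pearson's r of log2 CPM over the 24 libraries, which share mice and groups, as a description. Il6 was closest to Nop14 (0.986), Rsad1 (0.985) and Ncl (0.983). Cxcl2 was closest to Cd69 (0.973), Tnfsf9 (0.97) and Cxcl3 (0.96), Il1b to Marcksl1 (0.979), Tnf to Nod2 (0.946), Il10 to Lipe (0.96), Il18 to Il15 (0.946), Cxcl1 to Adm (0.949) and Il1rn to Lmo2 (0.881). For the low Il1a and Il12b the highest values were 0.813 and 0.85. Among the 10 themselves, Cxcl1 with Cxcl2 had an r of 0.82 and Tnf with Cxcl1 of 0.8, while Il6 reached 0.74 with Cxcl2 and -0.19 with Il1b.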

How the data were processed

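RNA was sequenced from 24 libraries of bone marrow-derived macrophages, 4 mice in each of 6 groups. The authors used cutadapt 1.8 for trimming, discarded reads of ribosomal RNA or low complexity, and used STAR 2.7 (genome GRCm39) for alignment and HTSeq 0.9.1 for counting. The deposited counts used here are raw and not normalized. Totals in 5 rows that name no gene, 12.7% to 15.2% of a library, did not enter library sizes or tests. Deposited TPM values from RSEM 1.2.31 were not used, because their header has more names than there are columns. M-CSF was given at 50 ng/ml in the text of the study and at 50 µg/ml in the labels.

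From the counts, edgeR 4.0.16 in R 4.3.3 fitted 1 quasi-likelihood model over all groups, with TMM scaling and the groupwise filterByExpr filter, adjusted by Benjamini-Hochberg over 13679 genes. A gene was called at an adjusted p-value under 0.05 and at least 2.5-fold. CPM are relative to TMM-normalized library sizes. A group with 3 reads or fewer in every library was at the floor, and folds against it are bounds set at 3 reads per library, which cover counting error only. Levels per transcript length used exon lengths of the GENCODE annotation, in which 56323 identifiers were found. The fit was tested on simulated data. Libraries of a group differed by more than sampling noise (chi-square per gene 2.2 to 36.3).

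The same number marks the same mouse. Deviations from group means had a median correlation of 0.24 over 60 pairs of libraries of a mouse, 56 of them above 0.1, and of -0.05 over 180 pairs of different mice. The main model has no block, since the study's methods name none and give no design formula, and a block for the mouse was an alternative. The others were DESeq2 1.42.0, other size factors and filters, only the groups compared, other fold thresholds and leaving out each mouse. Named beside the 10 genes are the 2 largest called changes of each list in each comparison, the most similar genes, and Atf4, Ddit3 and Arg1. The 10 genes, the lists and the tests were chosen with earlier results of these data known. One of the listed genes is not reported here and was left out of its list's counts.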

Additional observations from a re-analysis of the deposited data

Results flagged for a closer look

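In each of 60 sets of 4 libraries, 1 per gene and group, the highest or lowest value was compared with the rest by Dixon's ratio, which chance exceeds in about 1 set of 20, and 4 sets exceeded it. All 4 were high values of mouse 5. Il1a in M2 was 1.03 CPM in mouse 5, with the next library at 0.39 CPM. Il10 in Oligo was 0.75 CPM, next 0.426 CPM. Cxcl1 in Tunica was 9.12 CPM, next 6.19 CPM. Cxcl2 in M0 was 16 CPM, next 10.5 CPM.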

How the results depend on the processing

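The counts of the 10 genes called kept within 1.5 times their main value under DESeq2, RLE or upper-quartile scaling, both other filters, the 2-fold threshold and the replicate block, and 1 changed further when only the groups compared were fitted, where Sal003 against M2 had 1 gene called and not 2. Il6 was then below the filter and could not be tested there. With no minimum fold the calls among the 10 were 4 in Sal003, 5 in Oligo and 5 in Oli_ISR against M2. Over all genes, 680 were called between the oligomycin groups at 2-fold (main 358). With no minimum fold, 8279 were called in M2 against M0, 10437 in Tunica, 6917 in Sal003, 9051 in Oligo and 7428 in Oli_ISR against M2, and 5634 between the oligomycin groups. The replicate block for the mouse turned 4 differences that had not passed into passes on the adjusted p. They were Cxcl1 in Sal003 against M2 (-1.24) and in Oli_ISR against M2 (-0.98), Tnf in Oligo against Oli_ISR (0.43) and Cxcl1 in Oligo against Sal003 (0.71). For the 10 genes the block changed no other difference between passing and not passing.

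The signs that turned were of differences that had not passed, the largest of them that of Il6 in M2 against M0 (-0.73), on at most 5 reads per library. The change of Il18 in Tunica against M2 was 0 under DESeq2 and RLE, -0.04 under upper-quartile scaling, -0.01 with a mean of at least 1 CPM and -0.01 with only these groups, and Cxcl2 in Oli_ISR against M2 was -0.01 under DESeq2. Leaving out 1 mouse gave ranges across 0 for Il18 in Tunica against M2 (-0.1 to 0.17), Il1b in Oligo against M2 (-0.46 to 0.2), Il18 in Oli_ISR against Sal003 (-0.05 to 0.04), Il6 in M2 against M0 (-1.12 to 0.44), Il1a in Tunica against M2 (-0.14 to 0.83), Il1a in Oligo against M0 (-0.24 to 0.08), Cxcl2 in Oli_ISR against M2 (-0.22 to 0.32), Il1a in Oli_ISR against Sal003 (-0.34 to 0.42), Il12b in Oli_ISR against Sal003 (-0.01 to 0.19), Il1a in M2 against M0 (-0.12 to 0.36), Il1a in Oligo against M2 (-0.31 to 0.13), Il12b in Oligo against M2 (-0.48 to 1), Il18 in Oligo against Oli_ISR (-0.14 to 0.02), Il1rn in Oli_ISR against M0 (-0.16 to 0.2), Il10 in Tunica against Sal003 (-0.34 to 0.29) and Cxcl1 in Oli_ISR against Sal003 (-0.08 to 0.6). For 2 comparisons DESeq2 gave no adjusted p. The causes were not tested. Precision for Il6 in M0 and M2, Il12b and Il1a is limited by their few reads.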
